A study of Mus musculus with 3 samples.

Results

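The 9 genes followed here carry dietary sugar across the small intestinal enterocyte or handle fructose and glucose inside it. They are the transporters Slc5a1, Slc5a4b, Slc2a2 and Slc2a5, the fructose enzymes Khk and Tkfc, and the glucose enzymes Hkdc1, G6pc and Fbp1. They were chosen by name from the 13891 genes of a single-cell expression table, and all 9 had a row. Cells came from the small intestine of male ICR mice, an outbred stock. The AOS 0 group received vehicle alone. The B + A 0 group received 1 injection of busulfan, an alkylating drug, at 40 mg/kg body weight at 3 weeks of age, and then vehicle. The B + A 10 group received the same injection and then alginate oligosaccharides (AOS), short chains made from the alginate of brown algae, at 10 mg/kg. Vehicle or AOS was given by daily gavage for 2 weeks. Cells of 6 mice were combined into 1 library per group, so single animals cannot be told apart, no difference between libraries has a replicate check, and no p-value is given. All intervals below are 95% intervals of the UMI counts (a UMI is a tag that marks 1 captured RNA molecule) and cover counting error only. The source names of both busulfan samples disagreed with their titles, descriptions and treatments, and the titles were followed. An exchange of these 2 libraries would turn every direction of B + A 10 over B + A 0. It would also swap the values of B + A 0 over AOS 0 with those of B + A 10 over AOS 0. Such an exchange was not tested.

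Glucose and galactose enter the enterocyte from the lumen through SGLT1, the product of Slc5a1, together with sodium. Fructose enters through GLUT5 (Slc2a5), and GLUT2 (Slc2a2) lets glucose, galactose and fructose pass on towards the blood. Ketohexokinase (Khk) phosphorylates fructose, and triokinase (Tkfc) phosphorylates the glyceraldehyde set free later in the same route, while fructose-1,6-bisphosphatase (Fbp1) and glucose-6-phosphatase (G6pc) are late steps of glucose production. Hkdc1 belongs to the hexokinase family, and Slc5a4b to the SGLT3-type relatives of SGLT1. Enterocytes arise from crypt stem cells and mature as they move up the villus.

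The AOS 0 library held 4106 cells with a median of 7371 UMIs, B + A 0 had 3195 with 6407, and B + A 10 had 5352 with 3505, and each pair of libraries shared between 17 and 34 cell barcodes. The cells were clustered without the 9 genes, and 7 of the 21 clusters were taken as stem-like cells (894, led by Olfm4) and as early (1154, led by Gsdmc2), mid (1235, led by Ms4a18), duodenal (341, led by S100g), proximal (868, led by Fabp1), mature (1187, with Slc5a12 and Enpp7 among the leading genes) and ileal (671, with Slc10a2 and Fabp6) enterocyte-like cells. The summed level of a class's own marker list was the highest of the 7 classes in every library, with 1 exception. The mid list summed to 835, 879 and 788 UMIs per 10000 in its own class and to 1891, 1902 and 1473 in the ileal enterocyte-like class, where its abundant genes Reg3b and Reg3g were highest. Of its other genes, Ms4a18 was highest in the mid class (4.43 UMIs per 10000), but Il18 was higher in the proximal class (2.40 against 1.92), so the name of the mid class rests on part of its list. Levels below are UMIs of a gene per 10000 UMIs of the cells of 1 class in 1 library. A UMI stands for 1 captured molecule, so no scaling by gene length was made. Where 3 values are given without names, they stand for AOS 0 first, then B + A 0, then B + A 10.

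The bases before the 4 transporter genes are shown because these genes carry the sugar itself. They are RefSeq bases of GRCm38.p6, 5′ to 3′ on the strand of the gene, and capitals mark the motif letters found.
Slc5a1, chr5:33103969-33104218, plus strand: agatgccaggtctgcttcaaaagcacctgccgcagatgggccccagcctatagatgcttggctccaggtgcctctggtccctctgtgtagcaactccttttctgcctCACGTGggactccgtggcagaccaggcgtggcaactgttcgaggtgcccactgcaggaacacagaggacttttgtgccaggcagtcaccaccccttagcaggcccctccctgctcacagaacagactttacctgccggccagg
Slc5a4b, chr10:76111019-76111268, minus strand: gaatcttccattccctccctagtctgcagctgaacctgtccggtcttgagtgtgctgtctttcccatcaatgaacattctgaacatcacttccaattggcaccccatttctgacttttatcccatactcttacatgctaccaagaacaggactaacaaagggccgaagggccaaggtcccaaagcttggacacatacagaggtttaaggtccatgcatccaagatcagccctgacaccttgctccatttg
Slc2a2, chr3:28697653-28697902, plus strand: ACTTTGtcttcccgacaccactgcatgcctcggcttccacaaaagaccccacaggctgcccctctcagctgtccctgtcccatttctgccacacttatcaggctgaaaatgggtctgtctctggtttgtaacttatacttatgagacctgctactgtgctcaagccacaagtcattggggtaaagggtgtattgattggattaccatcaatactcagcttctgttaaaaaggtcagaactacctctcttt
Slc2a5, chr4:150119094-150119282, plus strand: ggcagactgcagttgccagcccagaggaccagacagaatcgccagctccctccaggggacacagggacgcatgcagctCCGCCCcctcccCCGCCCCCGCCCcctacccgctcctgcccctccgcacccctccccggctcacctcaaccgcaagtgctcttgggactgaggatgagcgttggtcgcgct
In all, 6 motifs were searched on both strands of the 250 bases before the RefSeq start of 32851 promoters, which included those of all 9 genes. The E box CACGTG was held by 6.02% of all promoters and by those of Slc5a1, 143 bases before the start, and Khk. The GC box CCGCCC was held by 32.7% of all promoters and by those of Slc2a5, at 172, 160 and 154 bases before the RefSeq start, Khk and Fbp1. The HNF4 core CAAAGT was held by 12.6% of all promoters and by those of Slc2a2, on the opposite strand 250 bases before the start, and Tkfc. The HNF1 motif GTTAAT (6.43% of promoters) was found in Khk and G6pc, the GATA site AGATAA (9.99%) in Fbp1, and the CDX site TTTATG (10.8%) in none of the 9. The Slc5a4b window held none of the 6 motifs. A match of letters is a description of the window and not a bound site.

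Slc5a1 (chr5:33104219-33162870, GRCm38, GENCODE vM21, as for the genes below), the sodium-driven glucose transporter of the brush border, had 24384 UMIs, and 78.3% of them lay in the 6 enterocyte-like classes. Its level in the stem-like class was 0.675 (0.564 to 0.801), 0.863 (0.717 to 1.03) and 0.920 (0.773 to 1.09). In the mature enterocyte-like class it was 11.9 (11.5 to 12.4), 12.5 (11.9 to 13.1) and 13.0 (12.5 to 13.6). The stem-like class was thus lowest and the mature class highest in every library. The ranges of the mature and proximal classes over the libraries stood apart, but their intervals overlapped in AOS 0, where the proximal class held 11.0 (10.5 to 11.6). Between them stood the early class with 1.53, 1.91 and 2.32, the ileal class with 4.08, 4.85 and 5.16 and the mid class with 5.65, 6.78 and 7.38. The duodenal class held 7.32, 7.55 and 9.20, and the proximal class 11.0, 8.95 and 11.5. By their ranges over the libraries, the proximal and duodenal classes overlapped, as did the duodenal and mid classes, and all other neighbours in this order stood apart.

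Slc5a1 was detected in a large share of cells of the later classes. After each cell was thinned to 1000 UMIs, 66.0% of mature enterocyte-like cells (63.3 to 68.7, exact binomial interval) and 41.3% of ileal enterocyte-like cells (37.5 to 45.1) had an Slc5a1 UMI. The share was 6.82% of stem-like cells (5.26 to 8.68) and 5.53% of goblet-like cells (4.03 to 7.37), a mucus-secreting type that should lack the transporter. The intervals of the stem-like and goblet-like shares overlapped, so these shares could not be told apart at the thinned depth. The stem-like level, however, stood above the goblet-like level, with no overlap of intervals, in AOS 0 and B + A 0, where goblet-like cells held 0.289 (0.205 to 0.395) and 0.516 (0.403 to 0.651), and overlapped it in B + A 10, at 0.646 (0.508 to 0.810). Without thinning, the mature, stem-like and goblet-like shares were 94.9%, 33.2% and 19.0%, at median depths of 3793, 4936.5 and 4560 UMIs per cell.

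Slc5a4b (chr10:76057494-76110961) was concentrated in a single class. Its level in mature enterocyte-like cells was 0.907 (0.778 to 1.05), 1.24 (1.06 to 1.45) and 1.11 (0.943 to 1.29). The next class, the proximal one, held 0.284, 0.238 and 0.404, and the mid class 0.160, 0.257 and 0.191. The mature range stood apart from all others, and the proximal and mid ranges overlapped. The duodenal class, where Slc5a1 was abundant, held only 3, 4 and 5 Slc5a4b UMIs, a level of 0.0632, 0.0927 and 0.0913. Slc5a4a, a close relative on the same chromosome, had 49 UMIs in the enterocyte-like classes against 834 for Slc5a4b. Slc5a4a too was highest in the mature class in every library, at 0.0363, 0.127 and 0.0831. Of the 31-base stretches in the last 500 bases of Slc5a4b transcripts, 6.92% were also found in D10Wsu102e. How reads from there were counted was not tested.

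**Figure D1:**
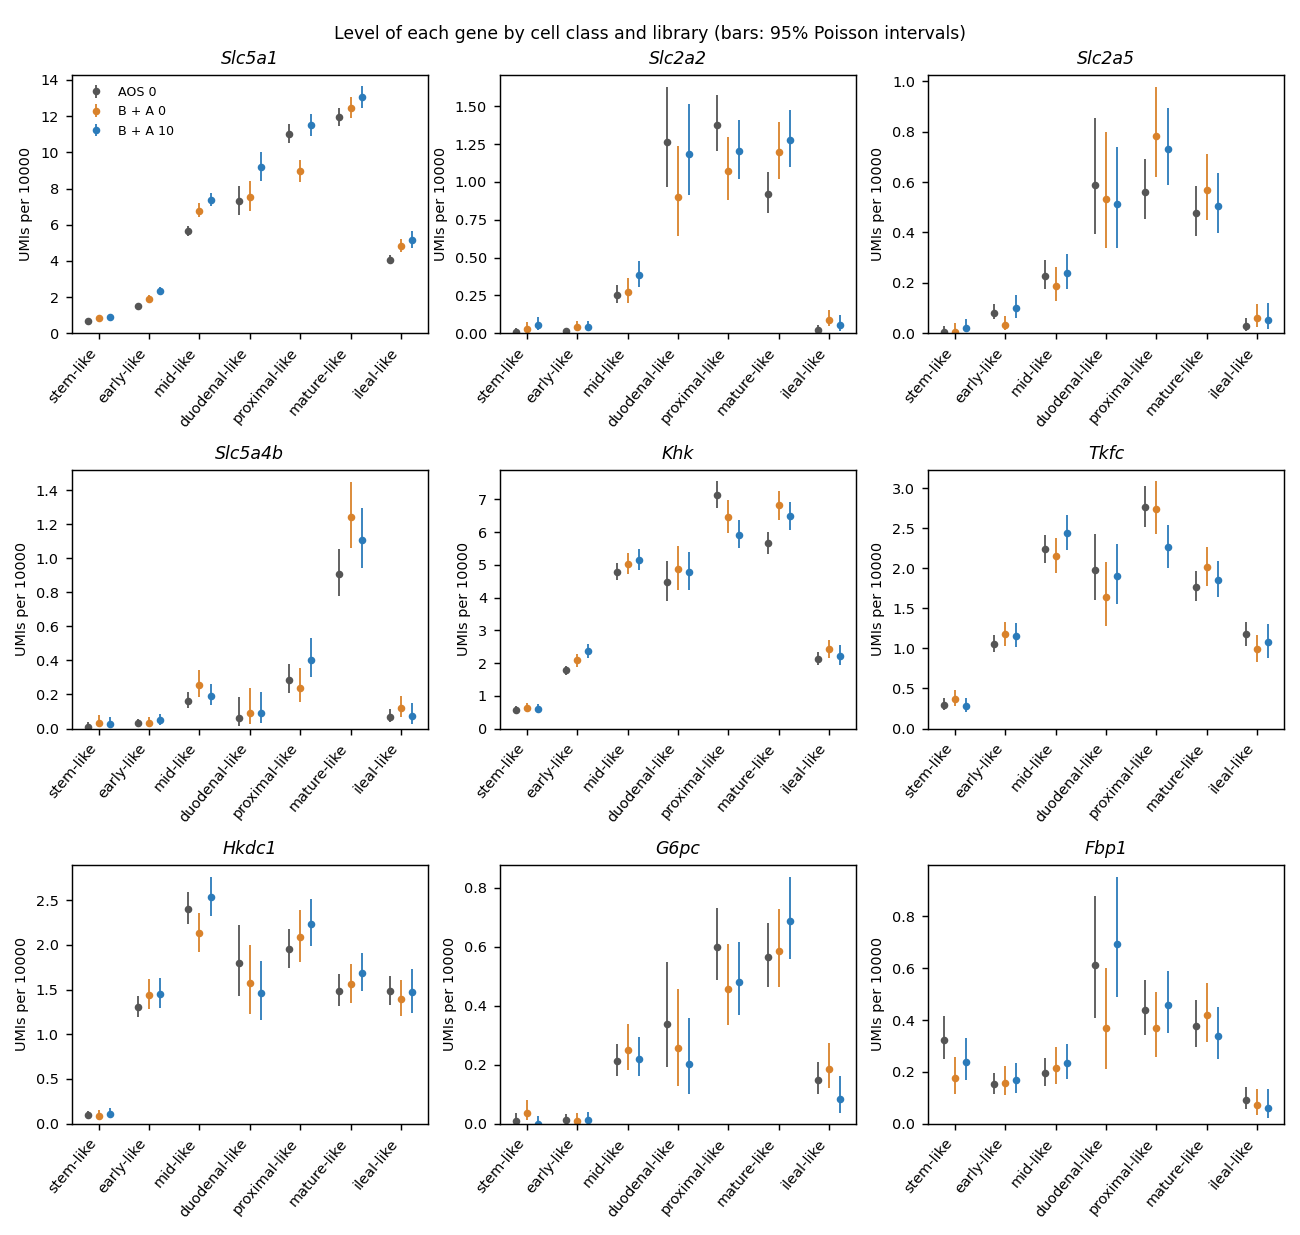
Level of each of the 9 genes (y axes, UMIs per 10000, each panel with its own scale) in the stem-like and 6 enterocyte-like classes (x axes), 1 point per library with bars for 95% Poisson intervals. Slc5a1 stands between 0.675 and 0.920 in stem-like and between 11.9 and 13.0 in mature enterocyte-like cells, Slc2a2 and Slc2a5 are at most 0.0885 in ileal enterocyte-like cells, and Slc5a4b is highest in the mature class alone.

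Slc2a2 (chr3:28697903-28731359), through which sugars leave the cell, was found mainly in 3 classes. Its level in the proximal class was 1.38 (1.20 to 1.57), 1.07 (0.880 to 1.30) and 1.20 (1.02 to 1.41). The mature class held 0.923, 1.20 and 1.27, and the duodenal class 1.26, 0.903 and 1.19. These 3 ranges overlapped, and all lay above the mid class at 0.256, 0.274 and 0.387. In the ileal class the level was 0.0230 (0.00748 to 0.0538), 0.0885 (0.0457 to 0.155) and 0.0517 (0.0168 to 0.121), from 5, 12 and 5 UMIs. Goblet-like cells held 0.0148, 0.0363 and 0.0258, with intervals that overlapped those of the ileal class in every library. Slc2a2 was thus not distinguishable from background in ileal enterocyte-like cells, where Slc5a1 stood at 4.08 to 5.16. Over the pooled libraries there were 8.57 Slc5a1 UMIs per Slc2a2 UMI in the proximal class (7.80 to 9.44) and 11.2 in the mature class (10.3 to 12.3).

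Slc2a5 (chr4:150119283-150144169), the fructose transporter of the brush border, was found in the same 3 classes. Its level in the proximal class was 0.562 (0.453 to 0.691), 0.785 (0.621 to 0.978) and 0.730 (0.590 to 0.893). The duodenal class held 0.590, 0.533 and 0.511, and the mature class 0.477, 0.569 and 0.506. The proximal and duodenal ranges overlapped, as did the duodenal and mature ranges, and all lay above the mid class at 0.228, 0.188 and 0.239. The ileal class held 6, 8 and 5 UMIs, a level of 0.0276, 0.0590 and 0.0517, with intervals that overlapped those of goblet-like cells in every library. Over the 21 levels of 7 classes in 3 libraries, on the scale of log2(level + 0.1), Pearson's r of Slc2a5 was 0.973 with Slc2a2 and 0.864 with Slc5a1. Such points share libraries and depth, and every r here is a description.

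Counts of single cells were sparse for these genes. After thinning, 10.5% of the 105 proximal enterocyte-like cells with an Slc2a2 UMI also had an Slc2a5 UMI (5.35 to 18.0), beside 5.50% of those without one. In mature enterocyte-like cells the shares were 4.03% of 124 cells (1.32 to 9.16) and 4.89%. In both classes the share without an Slc2a2 UMI lay inside the interval of the share with one, so no difference was detectable at this depth. With Slc5a1 the order differed between classes. Slc2a5 was detected in 4.68% of the 534 proximal enterocyte-like cells with an Slc5a1 UMI (3.05 to 6.83), beside 8.38% of the 334 without one, and in 5.87% of the 784 mature enterocyte-like cells with one (4.33 to 7.75), beside 2.73% of the 403 without. The first share was the lower one in all 3 libraries in the proximal class and the higher one in all 3 in the mature class. Taken singly, however, only AOS 0 had a share without an Slc5a1 UMI outside the interval of the share with one. Its shares were 3.66% (1.35 to 7.79) beside 9% in the proximal and 7.79% (4.75 to 11.9) beside 0.709% in the mature class. For each busulfan library the share without lay inside that interval in either class, so no difference was detectable there. Cells are not replicates, and these shares are a description.

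Khk (chr5:30921431-30931248), the first step of fructose use, had 16181 UMIs. Its level in the proximal class was 7.13 (6.72 to 7.55), 6.47 (5.98 to 6.98) and 5.92 (5.51 to 6.36). In the mature class it was 5.65 (5.32 to 6.0), 6.81 (6.38 to 7.27) and 6.48 (6.07 to 6.91). The proximal class was thus higher in AOS 0 and the mature class in both busulfan libraries, and the ranges overlapped. The mid class held 4.79, 5.03 and 5.16, the duodenal class 4.47, 4.86 and 4.78, the ileal class 2.14, 2.42 and 2.22 and the early class 1.78, 2.08 and 2.36. The ileal and early ranges overlapped. Stem-like cells held 0.567, 0.631 and 0.607 and goblet-like cells 0.215, 0.480 and 0.586, and the intervals of both classes stood apart in AOS 0 and overlapped in the busulfan libraries. Khk was far more abundant than the fructose transporter, with 9.72 Khk UMIs per Slc2a5 UMI in the proximal (8.56 to 11.1) and 12.2 in the mature class (10.7 to 14.0).

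Tkfc (chr19:10587791-10605654), which returns the glyceraldehyde from fructose to glycolysis, had 6937 UMIs. Proximal enterocyte-like cells held 2.76 (2.51 to 3.03), 2.74 (2.43 to 3.08) and 2.26 (2.01 to 2.53). The mid class, at 2.24, 2.15 and 2.44, overlapped it, and the mature class was lower at 1.77, 2.01 and 1.86. The early class held 1.06, 1.17 and 1.16 and the ileal class 1.17, 0.989 and 1.07. Tkfc overlaps Cyb561a3 and Ddb1 on the opposite strand. The r of Khk and Tkfc over the 21 levels was 0.973, but their proportion differed between classes. There were 1.81 Khk UMIs per Tkfc UMI in early (1.66 to 1.97, exact binomial interval), 2.18 in mid (2.05 to 2.32), 2.53 in proximal (2.35 to 2.73) and 3.34 in mature enterocyte-like cells (3.10 to 3.61). The value was 1.89 in stem-like (1.55 to 2.31), 2.54 in duodenal (2.21 to 2.94) and 2.04 in ileal enterocyte-like cells (1.83 to 2.28). The stem-like and ileal intervals overlapped that of the early class. In AOS 0 the early and mature values were 1.68 and 3.199, in B + A 0 they were 1.77 and 3.38, and in B + A 10 they were 2.04 and 3.49. The intervals of the early and mature values did not overlap in any library.

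Hkdc1 (chr10:62383137-62422491), of the hexokinase family, was already high in early enterocyte-like cells. Its level was 0.0928 (0.0550 to 0.147), 0.0912 (0.0486 to 0.156) and 0.107 (0.0610 to 0.173) in the stem-like class and 1.30 (1.19 to 1.43), 1.44 (1.28 to 1.62) and 1.45 (1.30 to 1.63) in the early class. Goblet-like cells held 0.0222, 0.138 and 0.129, with intervals that overlapped those of the stem-like class in every library, so the stem-like level was not distinguishable from background. The mid class was highest in every library, at 2.40, 2.13 and 2.53, and overlapped the proximal class at 1.95, 2.09 and 2.24. The duodenal class held 1.79, 1.58 and 1.46, the mature class 1.49, 1.56 and 1.68 and the ileal class 1.48, 1.39 and 1.47. Hkdc1 thus stood between 1.30 and 2.53 in every enterocyte-like class and library, and at most 0.107 in stem-like cells. It was among the 10 leading genes of the mid cluster, and Slc2a2 among those of the proximal cluster, although the 9 genes were not used to form or name clusters.

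G6pc (chr11:101367561-101377903), which frees glucose from its phosphate, was sparse, with 862 UMIs. Mature enterocyte-like cells held 0.565 (0.464 to 0.681), 0.584 (0.462 to 0.729) and 0.686 (0.557 to 0.835). The proximal class held 0.600, 0.457 and 0.481 and overlapped it. The duodenal class held 0.337, 0.255 and 0.201, the mid class 0.211, 0.251 and 0.220 and the ileal class 0.147, 0.184 and 0.0826. Early enterocyte-like cells held 5, 2 and 3 UMIs and stem-like cells 2, 5 and 0. Their intervals overlapped those of goblet-like cells, which held 2, 4 and 4 UMIs, so G6pc was not distinguishable from background before the mid class.

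Fbp1 (chr13:62864753-62888282), the bisphosphatase of glucose production, differed from the other 8 genes in that 51.1% of its 1435 UMIs lay in the enterocyte-like classes, against 73.2% to 87.7% for the others. Duodenal enterocyte-like cells held 0.611 (0.409 to 0.878), 0.371 (0.212 to 0.602) and 0.694 (0.491 to 0.952). The proximal class held 0.439, 0.367 and 0.458 and the mature class 0.378, 0.419 and 0.339, and these 3 ranges overlapped. In stem-like cells the level was 0.325 (0.249 to 0.415), 0.175 (0.114 to 0.259) and 0.240 (0.168 to 0.332), beside 0.152, 0.159 and 0.170 in the early class. Goblet-like cells held 0, 4 and 3 UMIs, and the upper bounds of their level, 0.0273, 0.0744 and 0.0755, lay below the stem-like intervals. Fbp1 message was thus present in stem-like cells above background. Crypt clusters led by the cell division genes Rrm2, Cdc20 and Ube2c, which took no class name, held 0.210, 0.184 and 0.213 over the pooled libraries. The ileal class was lowest of the 7, at 0.0921, 0.0738 and 0.0620.

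Pairs of classes were then compared for genes with at least 100 UMIs in the pair. A gene could reach that minimum through the class where it is high alone, so no count over the 9 is given. Since the classes were formed from genes that vary with these 9, the ratios describe the classes. Where the lower class was not distinguishable from goblet-like cells of the same library, its level may be background and the ratio is read as a lower limit.

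From stem-like to early enterocyte-like cells, Tkfc was 3.52-fold higher over the pooled libraries (2.96 to 4.21), Khk 3.37-fold (2.97 to 3.83) and Slc5a1 2.29-fold (2.04 to 2.56). These ratios moved with the background. With the goblet-like level of the same library subtracted, an alternative chosen after seeing the data, they were 4.37, 4.14 and 13.2 for Tkfc, 4.45, 10.5 and 84.0 for Khk and 3.21, 4.03 and 6.11 for Slc5a1. The ratio of 84.0 divides by a subtracted stem-like level of only 0.0211, and that of 13.2 by 0.0714. Stem-like and goblet-like intervals overlapped for Tkfc, Khk and Slc5a1 in B + A 10 and for Khk in B + A 0. Such a divisor cannot be told from 0, so the size of these ratios is not read. Hkdc1 was higher by a lower limit of 14.3-fold (10.7 to 19.6). Fbp1 had a ratio of 0.622 (0.481 to 0.804).

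From early to mature enterocyte-like cells, Slc5a1 was 6.74-fold (6.37 to 7.15), Khk 3.10-fold (2.91 to 3.29), Fbp1 2.39-fold (1.89 to 3.02), Tkfc 1.67-fold (1.52 to 1.84) and Hkdc1 1.14-fold higher (1.03 to 1.248). The remaining 4 genes overlapped goblet-like cells in the early class in every library. Their lower limits were 47.9-fold for G6pc (25.7 to 101, from 10 UMIs in the early class), 38.0-fold for Slc2a2 (25.1 to 60.5), 28.9-fold for Slc5a4b (19.9 to 43.7) and 6.96-fold for Slc2a5 (5.21 to 9.44), and no order among them is read. With the libraries pooled, early Slc2a5, at 0.0735 (0.0558 to 0.0951), did stand above goblet-like cells, at 0.0206 (0.00889 to 0.0406). The proximal marker list summed to 401, 429 and 423 UMIs per 10000 in the mature class and to 34.7, 40.3 and 41.3 in the early class. Gut region and maturation thus cannot be told apart in these ratios.

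Between proximal and ileal enterocyte-like cells, Khk was 2.93-fold (2.72 to 3.15), Tkfc 2.36-fold (2.12 to 2.64), Slc5a1 2.34-fold (2.22 to 2.47) and Hkdc1 1.43-fold higher (1.29 to 1.59) in the proximal class. Fbp1 was 5.33-fold, Slc5a4b 3.69-fold and G6pc 3.62-fold higher, and their ileal levels overlapped those of goblet-like cells in 2, 2 and 1 of the 3 libraries. For Slc2a2 and Slc2a5 the overlap held in every library. The lower limit was 25.4-fold for Slc2a2 (16.6 to 40.9), with ratios of 59.8, 12.1 and 23.3, and 16.0-fold for Slc2a5 (10.0 to 26.9), with ratios of 20.3, 13.3 and 14.1.

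**Figure D2:**
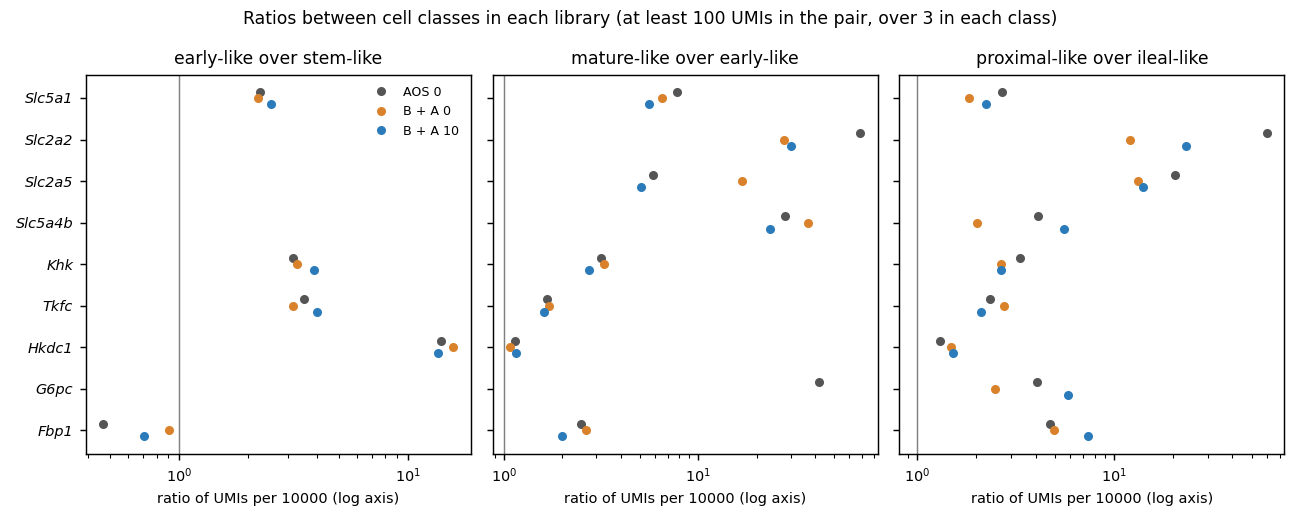
Ratio of UMIs per 10000 between 2 classes (x axes, log scale) for the 9 genes, 1 point per library, shown only where the pair held at least 100 UMIs and each class more than 3. Hkdc1 over stem-like, Slc2a2, Slc2a5, Slc5a4b and G6pc over early enterocyte-like, and Slc2a2 and Slc2a5 over ileal enterocyte-like cells are lower limits, because the lower class was not distinguishable from goblet-like cells in any library. In 1 or 2 libraries the same held for Slc5a1, Khk and Tkfc over stem-like and for Fbp1, Slc5a4b and G6pc over ileal enterocyte-like cells.

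The highest class was the same in all 3 libraries for 3 of the 9 genes, Slc5a1 and Slc5a4b in the mature and Hkdc1 in the mid class, beside 47.4% of 7125 genes. For the remaining 6 the ranges of the highest pair of classes overlapped. The genes most like a member over the 21 levels were Slc27a4 (r = 0.994), Slc43a2 (0.990) and Naprt (0.987) for Slc5a1, and H2-Q1 (0.984), Apoa4 (0.983) and Gpx4 (0.983) for Slc2a2. For Slc2a5 they were Rbp2 (0.982), Fabp1 (0.981) and Slc25a3 (0.980), and for Slc5a4b Dnase1 (0.951), Unc93a (0.936) and Cyp4v3 (0.933). Rbp2, Fabp1 and Apoa4 are carriers of vitamin A and lipids and stand on the marker lists that named the classes. For Khk the nearest were Ckmt1 (0.991), Aldh1a1 (0.989) and Acbd4 (0.988), for Tkfc Reep6 (0.976), Plac8 (0.973) and Glod5 (0.973), and for Hkdc1 Gna11 (0.984), Trim31 (0.982) and Zzef1 (0.980). For G6pc they were Fam213a (0.962), the maltase gene Mgam (0.959) and Asah2 (0.958), and for Fbp1 Rtn4rl1 (0.949), Dhrs4 (0.935) and the alcohol dehydrogenase Adh1 (0.929). Among the 9 themselves Fbp1 and Hkdc1 were least alike, with an r of 0.110.

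The libraries were compared to see whether these genes stood at another level after busulfan, with or without AOS, when the 6 enterocyte-like classes were weighted equally. None of the 9 differed by 1.5-fold or more in any contrast, and all 9 passed the minimum of 300 UMIs. Of 6543 genes, 1.62% were higher and 1.15% lower by that limit in B + A 0 over AOS 0, 1.27% and 0.749% in B + A 10 over B + A 0, and 3.00% and 1.97% in B + A 10 over AOS 0. The median log2 ratio of the 9 was -0.03, -0.0043 and 0.07 in these contrasts, beside -0.06, 0.03 and -0.03 over all genes. The contrasts share libraries, so their values are given side by side.

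Slc5a1 stood highest in B + A 10. Its equally weighted level was 6.92, 7.09 and 8.10. The log2 ratio was 0.03 (-0.03 to 0.09) for B + A 0 over AOS 0, 0.19 (0.13 to 0.25) for B + A 10 over B + A 0 and 0.23 (0.17 to 0.28) for B + A 10 over AOS 0. B + A 10 was above AOS 0 in 6 of 6 classes, with 5 intervals above 1, from a ratio of 1.04 in the proximal class to 1.52 (1.34 to 1.72) in the early class. It was above B + A 0 in 6 of 6 classes as well, with 4 intervals above 1. Such intervals are narrow for abundant genes, and for B + A 10 over AOS 0 those of 1123 genes lay above and 1490 below 0 among the 6543.

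The same order of libraries was seen for Slc5a1 in some secretory classes. Goblet-like cells held 0.289, 0.516 and 0.646, secretory progenitor-like cells 0.254, 0.502 and 0.697, and Paneth-like cells 0.289, 0.700 and 0.799. Enteroendocrine-like cells differed, with 1.48 (1.12 to 1.91), 0.977 (0.626 to 1.45) and 1.28 (0.849 to 1.85), intervals that all overlapped. With the goblet-like level of the same library subtracted, the ratio of B + A 10 over AOS 0 was 1.35 in the early, 1.26 in the mid and 1.22 in the duodenal class. It was 1.19 in the ileal, 1.06 in the mature and 1.01 in the proximal class, and 0.710 in stem-like cells in place of 1.36. Markers of other cells moved with the libraries too. All 8 goblet markers summed to between 24.9 and 71.0 UMIs per 10000 over the 6 enterocyte-like classes in AOS 0, 62.8 and 127 in B + A 0 and 65.0 and 127 in B + A 10. All 8 Paneth markers summed to 19.9 to 28.9, 48.9 to 60.7 and 32.8 to 48.3, and all 8 T cell markers to 1.16 to 2.93, 5.25 to 6.50 and 6.60 to 11.4. The B cell, red blood cell and stromal lists summed to at most 0.0695 in any enterocyte-like class, and the B cell marker Ms4a1 was at 0. The part of this RNA, and of the lower depth of B + A 10, in the differences between libraries was not tested.

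**Figure D3:**
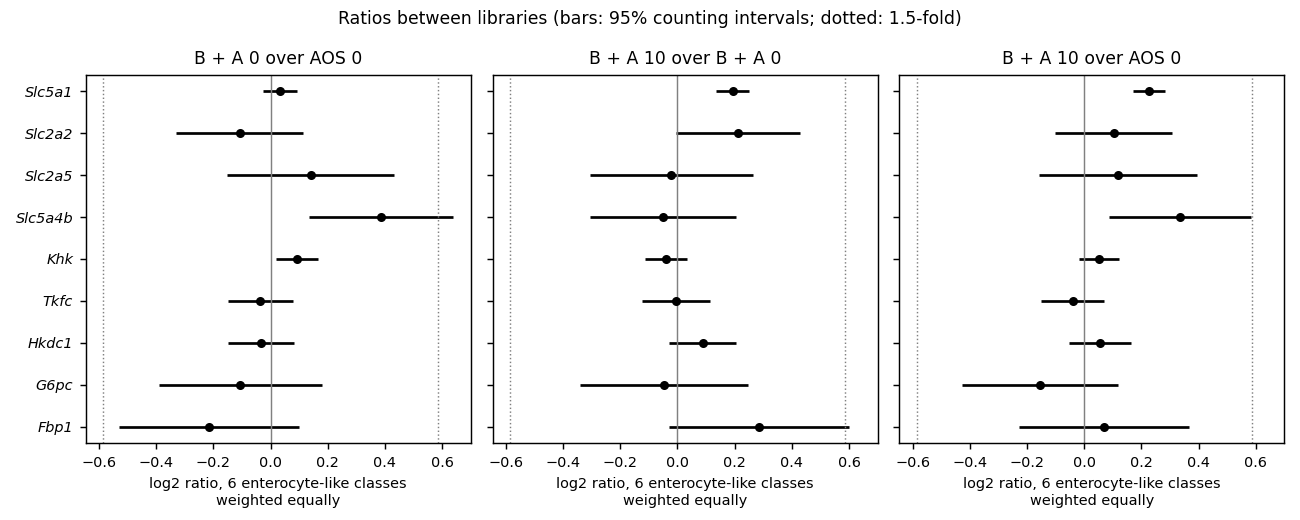
Log2 ratio between libraries of the 9 genes in the 6 enterocyte-like classes weighted equally, for 3 contrasts, with bars for 95% counting intervals and dotted lines at 1.5-fold. No gene lies past a dotted line, and Slc5a1 lies above 0 in both B + A 10 contrasts, at 0.19 and 0.23.

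Slc5a4b had the largest ratios to AOS 0. Its equally weighted level was 0.253, 0.330 and 0.319. The log2 ratio was 0.39 (0.13 to 0.64) for B + A 0 over AOS 0, 0.34 (0.09 to 0.58) for B + A 10 over AOS 0 and -0.05 (-0.30 to 0.20) for B + A 10 over B + A 0. With the classes weighted equally, both busulfan libraries thus stood above AOS 0 and could not be told apart from each other. In the mature class, which held 501 of its 834 UMIs in the enterocyte-like classes, B + A 0 over AOS 0 was 1.37 (1.10 to 1.70) and B + A 10 over AOS 0 was 1.22 (0.980 to 1.52). Of the 6 classes taken singly, 2 had intervals above 1 for B + A 0 over AOS 0 and 0 for B + A 10 over AOS 0.

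Khk stood at 4.33, 4.61 and 4.49, a log2 ratio of 0.09 (0.02 to 0.17) for B + A 0 over AOS 0, and 0.0072 with the goblet-like level of the same library subtracted. For Slc2a2, Slc2a5, Tkfc, Hkdc1, G6pc and Fbp1 every interval held 0, with log2 ratios between -0.22 and 0.28. Both of these outer values belonged to Fbp1, with -0.22 (-0.53 to 0.10) for B + A 0 over AOS 0 and 0.28 (-0.03 to 0.60) for B + A 10 over B + A 0. In stem-like cells, which that weighting leaves out, Fbp1 had a ratio of 0.540 (0.326 to 0.871) for B + A 0 over AOS 0. In proximal enterocyte-like cells Tkfc had a ratio of 0.817 (0.703 to 0.9496) and Khk of 0.831 (0.757 to 0.911) for B + A 10 over AOS 0, so both fructose enzymes stood lower there in B + A 10. Slc2a2 had a ratio of 1.38 (1.12 to 1.71) in the mature class in the same contrast.

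Outside the enterocyte classes, Slc2a5 stood out in enteroendocrine-like cells, the hormone-secreting type, with 0.382, 0.244 and 0.365. Over the pooled libraries this was 0.338 (0.227 to 0.486, from 29 UMIs), beside 0.0206 (0.00889 to 0.0406) in goblet-like cells. Slc5a1 in enteroendocrine-like cells was 1.28 (1.05 to 1.55), beside 0.476 (0.410 to 0.550) in goblet-like cells. In T cell-like cells Slc5a1 was 2.65 (2.42 to 2.88), but this came from 1 of 2 clusters, with 3.10 in that led by Gzma and 0.867 in that led by Ccl5. Slc5a1 was not alone there. The cluster led by Gzma also held 1.93 for Khk, 0.719 for Hkdc1 and 0.674 for Tkfc, beside 0.419, 0.0952 and 0.131 in goblet-like cells. The source of this RNA was not tested.

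**Figure D4:**
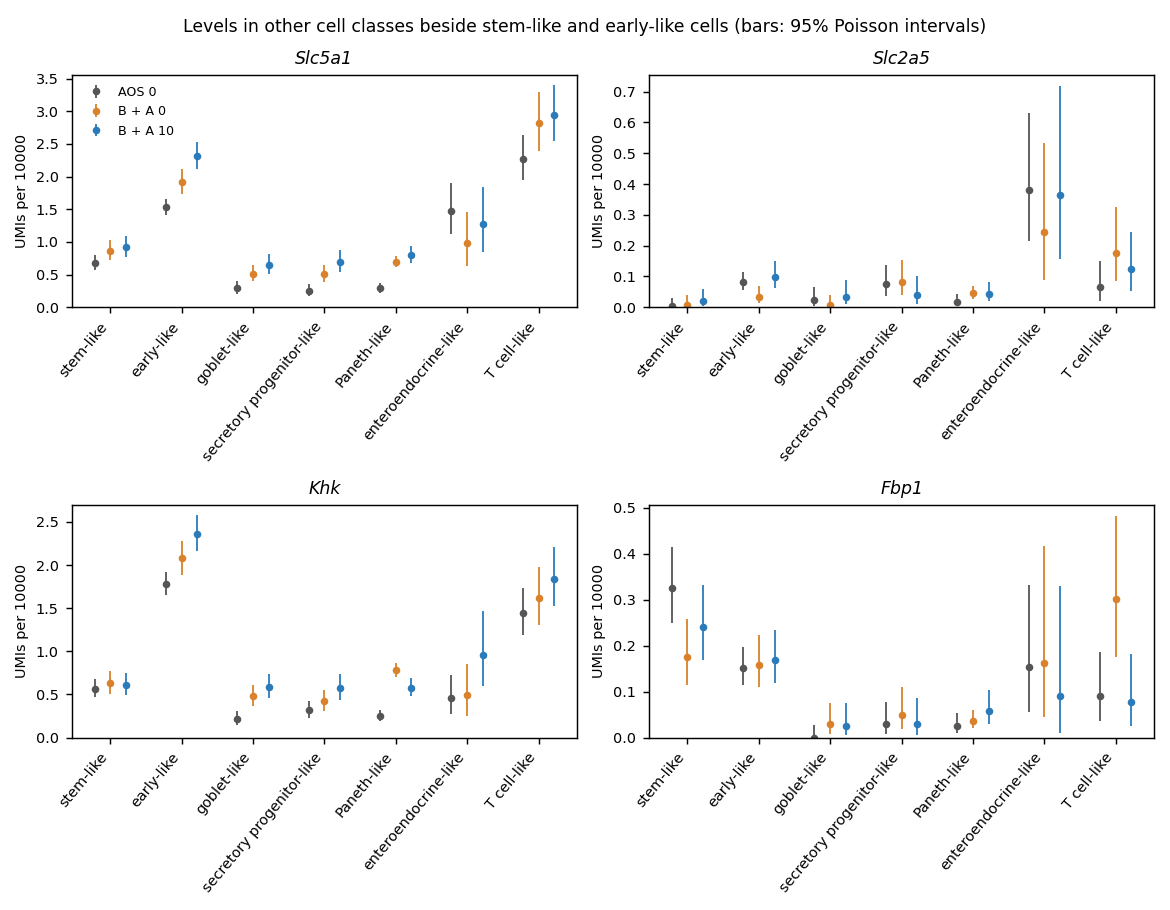
Level of Slc5a1, Slc2a5, Khk and Fbp1 (y axes, UMIs per 10000) in stem-like, early enterocyte-like and 5 other classes (x axes), 1 point per library with bars for 95% Poisson intervals. Slc5a1 in goblet-like cells is 0.289, 0.516 and 0.646, and Slc2a5 in enteroendocrine-like cells is 0.382, 0.244 and 0.365.

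Other genes of sugar use gave the setting for these 9. Of 78 genes on 7 lists, 72 had a row and 51 had at least 300 UMIs. Past 1.5-fold were 1 of the 51 in B + A 0 over AOS 0, 1 in B + A 10 over B + A 0 and 4 in B + A 10 over AOS 0. Of all 6543 genes, the shares higher and lower were 1.62% and 1.15%, 1.27% and 0.749%, and 3.00% and 1.97% in these contrasts. The hexokinase Hk2 stood higher in B + A 10 over AOS 0 by 0.95 (0.73 to 1.18) on the log2 scale, and Pck1, which starts glucose production from oxaloacetate, by 0.93 (0.60 to 1.253). Pfkfb3, a regulator of glycolysis, stood higher by 0.73 (0.37 to 1.09) over AOS 0 and by 0.61 (0.22 to 0.99) over B + A 0. Pgm1, listed among the galactose steps, stood lower, at -1.03 (-1.28 to -0.78) in B + A 10 and -0.78 (-1.03 to -0.54) in B + A 0 over AOS 0. Hk2 was most abundant in the ileal class, with 0.834, 1.14 and 1.69, and Pck1 in the mature class, with 0.612, 0.801 and 1.10.

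Among the disaccharidases, which free the sugars that the transporters carry, Sis (sucrase-isomaltase) stood lower in B + A 10 over AOS 0, at -0.52 (-0.58 to -0.45) on the log2 scale. Its level in the mature class was 10.2, 8.24 and 6.55, and it was lower in 6 of 6 classes in each contrast, with 5 intervals below 1 for B + A 10 over AOS 0. Lct (lactase) stood at 0.34 (0.25 to 0.43) and Mgam at -0.03 (-0.09 to 0.04) in the same contrast, so the 3 digestive enzymes did not move together. Among the fructose and polyol steps, 5 of 7 intervals lay below 0 in B + A 10 over AOS 0, beside 1490 of all 6543 genes, including those of Aldoa at -0.33 and Aldh1b1 at -0.16. The count was also 5 of 7 in B + A 0 over AOS 0, beside 1223 of all genes, so it was not particular to B + A 10. Of the genes with many UMIs on the remaining lists, in B + A 10 over AOS 0, Slc5a11 was at -0.01, Slc37a4 at 0.19 and Slc2a9 at 0.57. Ldha was at -0.20, Gapdh at 0.07 and Tpi1 at -0.05. Fbp2 was at -0.14 and G6pc3 at -0.22, while Ugp2 was at -0.36 and Galm at -0.01. Atp1b1 stood at 0.19, near Slc5a1 at 0.23, and the transcription factor gene Hnf4g at -0.38.

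**Figure D5:**
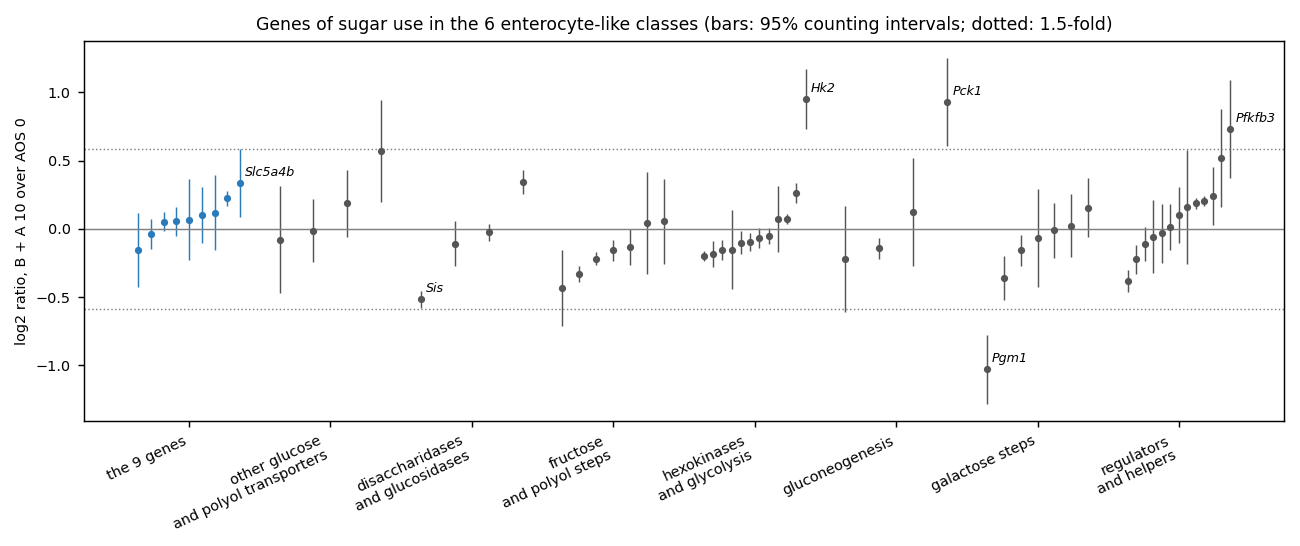
Log2 ratio of B + A 10 over AOS 0 (y axis) for the 9 genes (blue) and 51 other genes of sugar use in 7 lists (grey), with bars for 95% counting intervals and dotted lines at 1.5-fold. Hk2, Pck1 and Pfkfb3 lie above the upper line and Pgm1 below the lower one, while all 9 lie between the lines.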

How the data were processed

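Single-cell RNA libraries of the small intestine, 1 per group, were analysed from 1 deposited table. Per the submitters' processing notes and the study's methods, reads were aligned and counted with Cell Ranger 2.2.0 on mm10 with a forced number of cells, cells with few genes and genes in few cells were removed, and the authors deposited the natural log of 1 + UMIs per 10000 UMIs of a cell. Whole UMIs were recovered from these deposited natural log values (100% of 24333763 values above 0 came out whole within 0.01).

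Cells were joined and clustered in Seurat 5.3.0 (R 4.3.3) from 2000 variable genes without the 9 members, with 20 dimensions, 20 neighbours and a resolution of 0.8. A cluster took the class with the highest mean marker score if at least 2 of that list stood among its 10 leading genes, no other list had more, and under 50% of its cells had top doublet scores. This rule was set with the clusters in view. Scrublet's own threshold called 15 cells (0.119%), so it did not work and doublets were kept. UMIs were pooled by class and library in Python 3.11.15. Levels carry exact Poisson and within-class ratios exact binomial intervals. Equally weighted ratios carry a delta-method counting interval in place of the planned exact binomial one, which holds for a single ratio only. A gene had to have 300 UMIs and a ratio of 1.5 to count.

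Named genes were the 9 members, listed genes past 1.5-fold or among the 3 with most UMIs of a list, and for each member the 3 genes with the highest r. Some genes that this rule names are not reported here. Genes named otherwise are markers or were chosen after their values were seen. The members and lists were chosen with earlier results of these data known. Alternatives were other clusterings, cell filters, scalings, folds and minimums. Computations were tested on simulated data.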

Additional observations from a re-analysis of the deposited data

Results flagged for a closer look

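For 4 of the 9 genes, a pair of libraries differed one way in some enterocyte-like classes and the other way in another, with counting intervals off 1 in both, beside 8.51% of the 6543 genes with at least 300 UMIs. Such intervals are narrow for abundant genes. With 1 library per group these differences between classes were not tested.

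For B + A 0 over AOS 0, Slc5a1 had a ratio of 1.253 (1.10 to 1.43) in the early, 1.2 (1.11 to 1.29) in the mid and 1.189 (1.07 to 1.32) in the ileal class, against 0.812 (0.748 to 0.880) in the proximal class. Slc2a2 had 1.298 (1.04 to 1.62) in the mature and 3.844 (1.26 to 13.9, from 12 and 5 UMIs) in the ileal class, where Slc2a2 was not distinguishable from goblet-like cells (0.0148 and 0.0363 UMIs per 10000), against 0.778 (0.613 to 0.984) in the proximal class. Slc2a5 had 1.395 (1.02 to 1.91) in the proximal class, against 0.414 (0.154 to 0.962, from 7 and 30 UMIs) in the early class, where it overlapped goblet-like cells in both libraries. Khk had 1.167 (1.03 to 1.32) in the early and 1.205 (1.10 to 1.32) in the mature class, against 0.907 (0.823 to 1.000) in the proximal class. For B + A 10 over AOS 0, Khk had 1.325 (1.18 to 1.49) in the early and 1.146 (1.05 to 1.251) in the mature class, against 0.831 (0.757 to 0.911) in the proximal class. Goblet-like cells held 0.215 Khk UMIs per 10000 in AOS 0, against 0.480 and 0.586 in the busulfan libraries. With that level subtracted, an alternative chosen after seeing the data, the Khk ratio in the early class was 1.02 for B + A 0 over AOS 0 and 1.13 for B + A 10 over it, that in the mature class 1.16 and 1.08, and that in the proximal class 0.866 and 0.772.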

How the results depend on the processing

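No paired analysis was possible because each group is 1 library and no comparison comes from a test. Of 107 recomputed counts 79 stayed within 1.5 times and 28 moved, and of 324 log2 ratios of the 9 genes 22 moved by more than their counting interval reaches to one side. Of 675 class levels 194 moved, and of 22 ratios between classes 12 moved with the goblet-like level subtracted. The filter for cells with at least 500 genes kept all 6350 cells of the 7 classes. Its counts, log2 ratios and levels are included in these totals but could not move. Under the other clusterings and the assignment by own marker scores, 43.8% to 78.4% of cells kept their class. The log2 ratio of Slc5a1 for B + A 10 over AOS 0 ranged from 0.17 to 0.36 and that for B + A 10 over B + A 0 from 0.14 to 0.23 over 13 settings. That of Slc5a4b over AOS 0 ranged from 0.35 to 0.58 in B + A 0 and from 0.22 to 0.59 in B + A 10.

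The count of the 9 genes past 1.5-fold was 0 in each contrast and became 1 for B + A 10 over AOS 0 at resolution 1.5 (Slc5a4b). At that resolution 2.77% of all genes with the minimum of UMIs were higher and 1.81% lower in this contrast. With a lower fold it was 1 for B + A 0 over AOS 0 and 1 for B + A 10 over AOS 0. The count with 1 highest class in all libraries went from 3 to 6 without joining, 5 at resolution 0.4 and 8 when each cell took its own marker scores. The share of all genes with 1 highest class was not computed for these settings, so the counts are not read. The mature class was absent without joining and at resolution 0.4.

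Listed genes past the fold in B + A 0 over AOS 0 went from 1 to 2 with the 9 genes kept in the clustering, 2 without joining, 2 with own marker scores, 5 with cells thinned to 1000 UMIs, 8 at the lower fold, 0 at a fold of 2, 8 with no minimum and 5 with the goblet-like level subtracted. Over all genes in that contrast, the shares higher and lower were 5.72% and 8.12% thinned and 5.11% and 8.91% at the lower fold. They were 11.9% and 8.39% with no minimum and 10.0% and 18.0% with the goblet-like level subtracted. In B + A 10 over B + A 0 the listed genes went from 1 to 0 without joining, 2 with own marker scores, 3 with means per cell, 7 thinned, 6 at the lower fold, 0 at a fold of 2, 2 with a minimum of 100 UMIs, 8 with no minimum and 5 with the goblet-like level subtracted. Over all genes the shares were 7.33% and 3.89% thinned and 9.16% and 4.68% at the lower fold. With no minimum they were 9.74% and 8.12%, and with the goblet-like level subtracted 15.4% and 12.7%. In B + A 10 over AOS 0 the listed genes went from 4 to 8 thinned, 12 at the lower fold, 1 at a fold of 2, 14 with no minimum and 7 with the goblet-like level subtracted. Over all genes the shares were 7.22% and 5.79% thinned and 10.8% and 12.8% at the lower fold. With no minimum they were 13.2% and 8.22%, and with the goblet-like level subtracted 12.4% and 18.9%. Apart from the fold, the minimum and the thinning, which by construction alter what is counted, the cause was not tested. Depth limits the sparse genes: Slc2a2, Slc2a5, Slc5a4b, G6pc and Fbp1 had 733 to 1421 UMIs in the enterocyte-like classes.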
